A study of Rattus norvegicus with 6 samples.

Results

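The genes described here are 40 rat genes of the lysosome and of autophagy: proteases, glycosidases, lipid and sulfate hydrolases with their activators, membrane and cholesterol export proteins, the transcription factor Tfeb and genes of autophagosome formation. They were listed by name, with earlier results of these data known. Signal entered the rule only in picking each gene's probe and in the background filter. Probes were named through the transcript accession in the scanner files, and 39 of the 40 genes had a probe. Naglu, a heparan sulfate glycosidase, had no named probe and is not analysed here. All 39 were well above background on all 6 arrays and were tested among 27506 genes. The samples were renal cortex RNA of male Sprague-Dawley rats, bought at 5 weeks of age and then given either water or potassium bromate at 100 mg/kg/day for 4 weeks. Each group had 3 animals, called biological replicates in the labels, and each animal had its own single-colour Agilent array. Potassium bromate is an oxidising salt that damages the kidney tubule and causes renal tumours in rats.

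The lysosome is the acidic compartment in which cathepsins, glycosidases, lipases and sulfatases break down what the cell takes up or delivers by autophagy. Proximal tubule cells reabsorb filtered protein and degrade it in lysosomes, so the renal cortex is rich in these enzymes. In autophagy, a membrane carrying proteins of the LC3 and GABARAP families closes around cargo and fuses with the lysosome. Many lysosomal genes carry an E-box-like element that TFEB and its relative TFE3 bind when they enter the nucleus. That step is set mainly by phosphorylation, which transcript levels do not show.

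The promoter windows bear on which genes carry such an element, and RefSeq (build GRCr8) gave a window for 32 of the 40 genes. The windows of the other 8 (Ctsb, Hexa, Psap, Asah1, Arsa, Arsb, Map1lc3a and Becn1) were not used here. In the 250 bases before the start, on either strand, the E-box core CACGTG was found in 6 of 32 windows (18.8%): Ctsd, Lamp1, Gaa, Glb1, Cd63 and Atg5. Of all 33469 promoter windows in the table, 1872 (5.6%) held it. The longer form TCACGTGA, which contains CACGTG and so overlaps with it, was in 2 windows (6.2%), those of Ctsd and Lamp1, against 220 of all windows (0.7%). The stretches with matches are shown because the 6 genes differed in their response, 1 rising, 1 falling and 4 not passing the test. Each runs 5′ to 3′ on the gene's strand, with CACGTG, or TCACGTGA where the longer form is present, in capitals. Ctsd lies at chr1:206968822-206969001 (minus strand), Lamp1 at chr16:83075083-83075253 (minus), Gaa at chr10:105028275-105028316 (plus), Glb1 at chr8:122963603-122963642 (plus), Cd63 at chr7:1921939-1921978 (plus) and Atg5 at chr20:49380795-49380834 (plus).
Ctsd: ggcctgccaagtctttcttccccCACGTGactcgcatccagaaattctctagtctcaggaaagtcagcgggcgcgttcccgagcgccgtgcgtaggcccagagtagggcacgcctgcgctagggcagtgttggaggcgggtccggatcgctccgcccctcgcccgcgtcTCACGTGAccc
Lamp1: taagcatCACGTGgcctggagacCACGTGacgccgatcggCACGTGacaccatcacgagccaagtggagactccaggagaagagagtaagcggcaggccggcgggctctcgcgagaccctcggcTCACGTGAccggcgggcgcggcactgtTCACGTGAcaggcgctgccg
Gaa: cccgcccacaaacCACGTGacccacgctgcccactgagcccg
Glb1: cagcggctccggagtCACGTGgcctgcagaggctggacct
Cd63: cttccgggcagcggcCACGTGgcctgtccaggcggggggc
Atg5: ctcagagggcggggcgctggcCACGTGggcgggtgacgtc

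Ctsd held the core 157 and 10 bases before its start, and Lamp1 held it 5 times, at 183, 167, 150, 65 and 38 bases. The core TGACNNNGC, bound by the oxidant-responsive factor NRF2, was in 5 of 32 windows (15.6%), those of Ctsl, Gabarap, Naglu, Npc1 and Tpp1, against 3373 of all windows (10.1%). Ctsd, which also rose, held this core on both strands, but only after its start, so it is not among these 5. The Ctsl stretch is shown because that gene rose and held the core on both strands before the start, at chr17:769954-770033 (plus strand). Its capitals mark the match on the opposite strand, 141 bases before the start, and the match on the gene's strand at 86 bases.
Ctsl: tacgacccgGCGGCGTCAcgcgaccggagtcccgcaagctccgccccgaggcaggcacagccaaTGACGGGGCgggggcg

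A match is a run of letters and was not tested as a binding site. Of the other genes named below as changed, the windows of Scarb2 and Ctsh held none of these letters.

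Each level is given as log2 of the signal over the array's 75th percentile, which therefore stands at 0, and a level is never set against that of another gene. A gene is said to have risen or fallen where limma's test gave an adjusted p of at most 0.05, with Benjamini-Hochberg adjustment over all 27506 genes. On each array 57.9% to 63.1% of the probes were well above background and none was saturated. The array of water replicate 1 came from a slide of its own, and the remaining 5 arrays came from a single slide. The labelled tissue held its markers: all 10 proximal tubule markers were measured. Of these, 6 fell under bromate, and their summed linear level was 2182 to 2202 on the water arrays and 1478 to 1691 on the bromate arrays. Of 16 macrophage markers measured, 2 (C1qb and Cd14) rose and Cd163 was not well above background. Their summed level was 131.4 to 157 under water, and 128.9, 202.9 and 194.8 on bromate replicates 1 to 3. Such a linear sum gives most weight to the probe with the highest signal, here that of Lyz2, which did not pass. Lyz2 was at 6.31, 6.14 and 6.56 under water and 6.18, 6.82 and 6.75 under bromate. The fibroblast sum was 29.77 to 35.39 under water and 15.71, 35.12 and 37.16 under bromate, so bromate replicate 1 stood apart in both lists. Of 4 tubule injury markers measured, 2 rose, Havcr1 (KIM-1) and Clu, while Lcn2 and Vim did not pass. Krt20 was not well above background, and Havcr1 was so on only 2 water arrays. In whole cortex, fewer cells of a type and less RNA per cell cannot be told apart.

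Lysosomal genes moved in both directions under bromate. Of the 39 genes, 4 rose (Ctsd, Scarb2, Ctsl and Asah1), 3 fell (Arsa, Glb1 and Ctsh) and 32 did not pass. The 7 changed genes are 17.9% of those tested, against 14.5% of all genes. By direction, 6.87% of all genes rose and 7.59% fell. All genes here include 15940 without a symbol. Of the 11566 with a symbol, 8.6% rose and 8.32% fell. With only probes well above background on all 6 arrays, 17% of 24526 genes passed. The groups did not overlap in 18 genes (46.2%), against 41.0% of all genes. These shares lie close to those of all genes, so the counts show nothing particular to the lysosome as a group. The median difference was 0.06 over the 39 genes and -0.02 over all genes tested. Ctsd was the only member to change at least 2-fold. Of the 32 genes that did not pass, 22 had a 95% interval within 1.5-fold either way and 31 within 2-fold, with Gm2a as the exception.

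**Figure D1:**
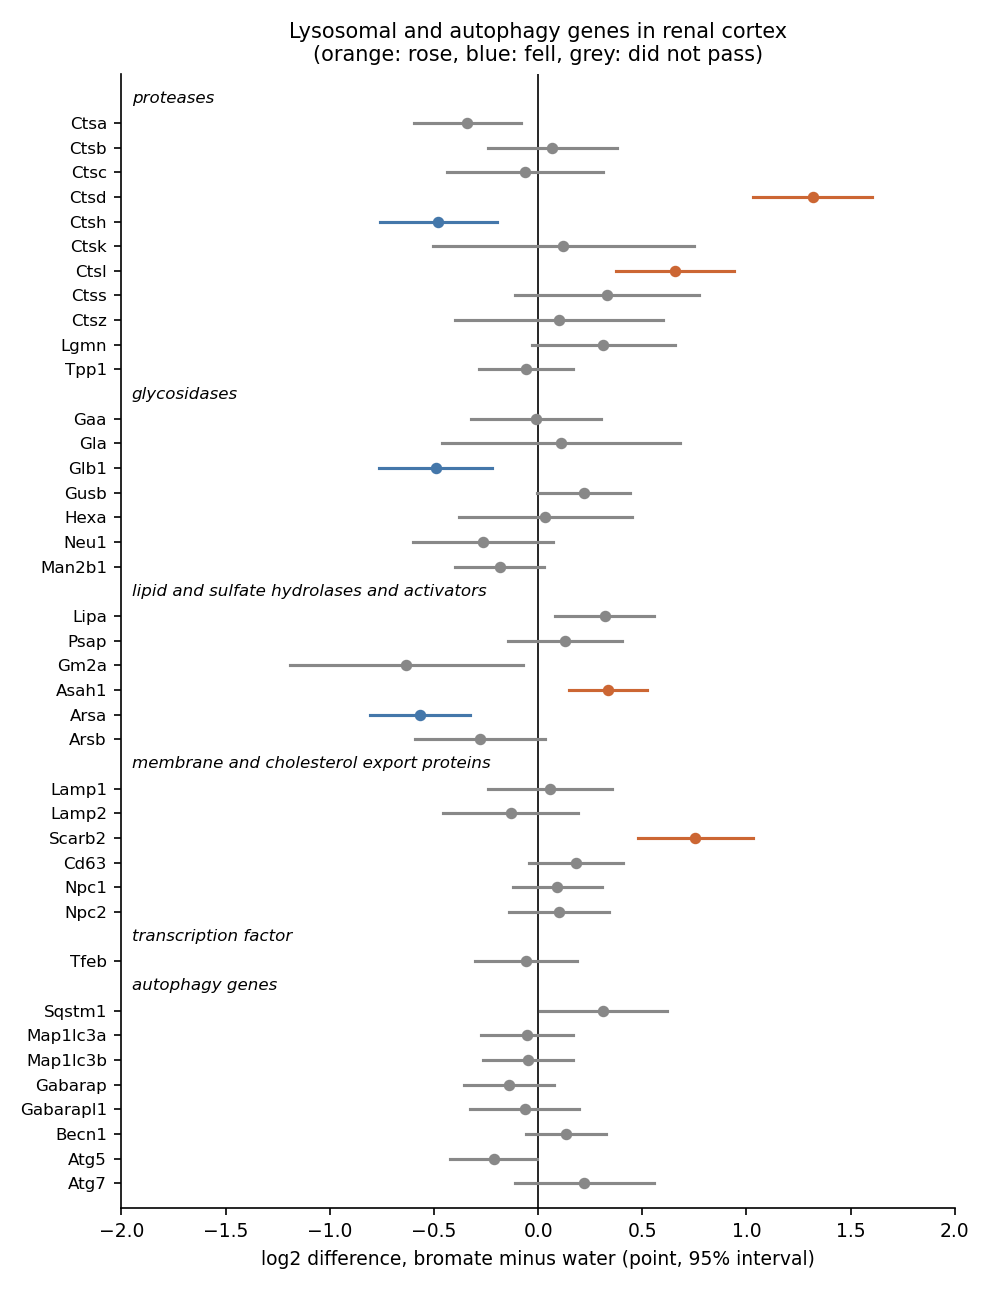
Log2 difference, bromate minus water, with its 95% interval for each of the 39 genes tested, grouped by role (horizontal axis in log2 units, 3 arrays per group). Orange genes rose, blue genes fell and grey genes did not pass; Ctsd at 1.32 stands apart from the others, and all 8 autophagy genes are grey.

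Among the 11 proteases, 2 rose and 1 fell. Ctsd encodes cathepsin D, the main aspartic protease of the lysosome. Its level was 6.51, 6.59 and 6.78 on water replicates 1 to 3 and 8.10, 7.86 and 7.87 on bromate replicates 1 to 3. The groups lay more than 1 log2 unit apart, beyond the spread within either. The log2 difference was 1.32 ± 0.12 (SE), with a 95% interval of 1.03 to 1.60 in log2 units. This is a 2.49-fold rise (adjusted p = 0.00341). Ctsd kept its call without each array in turn and under all 10 other settings of normalization, filter, probe choice and model. These settings overlap. Slide as a block gives the same fit as leaving out water replicate 1. Averaging probes leaves the values of a gene with 1 probe, such as Ctsd or Scarb2, as they were. Ctsd was highest on bromate replicate 1, the bromate array with the lowest macrophage and fibroblast sums. That array also had the highest proximal tubule sum under bromate, 1691 against 1478 and 1611 on bromate replicates 2 and 3. The same held for the collecting duct sum, at 261.2 against 170.1 and 143.8. The part of any of these markers in the Ctsd values was not tested.

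Ctsl encodes cathepsin L, a cysteine protease active in the degradation of reabsorbed protein. Its level was 6.99, 7.22 and 7.16 under water and 7.95, 7.75 and 7.65 under bromate. No bromate value reached down to the water range. The gene rose by 0.66 ± 0.12 (1.58-fold, adjusted p = 0.0210), and its other probe by 0.87 (adjusted p = 0.01005 over all probes). The call was lost without water replicate 2, water replicate 3 or bromate replicate 2, with adjusted p up to 0.0683, and also with no filter on dim probes or with the replicate number as a block.

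Ctsh encodes cathepsin H, a cysteine protease that trims peptides from their amino end. Its level was 6.89, 7.09 and 7.23 under water and 6.49, 6.61 and 6.67 under bromate, a fall to below the lowest water array. The difference was -0.48 ± 0.11 (1.39-fold lower, adjusted p = 0.0442). Of the 6 fits that each left out 1 array, only that without water replicate 1 kept the call, and adjusted p reached 0.127 in the others. It was also lost under 5 of the 10 other settings: quantile normalization, scaling on the percentile of probes detected on every array, normexp, no filter on dim probes and the replicate block.

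The other 8 proteases did not pass. Ctsa encodes cathepsin A, the carboxypeptidase that shields β-galactosidase and neuraminidase. It differed by -0.34 ± 0.11 with no overlap between groups (adjusted p = 0.0830). Its other probes differed by -0.46 and -0.39, and the first of these passed (adjusted p = 0.0463). Lgmn, the asparaginyl endopeptidase legumain, which processes other cathepsins, differed by 0.31 ± 0.14 (95% interval -0.03 to 0.65). Ctss, a cathepsin of antigen-presenting cells, differed by 0.33 ± 0.18. Its bromate values were 2.67, 3.23 and 2.80, highest on bromate replicate 2, where the macrophage sum was also highest. The part of macrophage markers in this difference was not tested.

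Ctsk, the collagen-degrading cathepsin of osteoclasts and fibroblasts, spread widely under bromate, at -0.59, 0.11 and 0.25. The low value lay on bromate replicate 1, where the fibroblast sum was also lowest. Its difference was 0.12 ± 0.26. Ctsb, Ctsc and Ctsz, which encode cathepsins B, C and Z, differed by 0.07, -0.06 and 0.10. Tpp1, a tripeptidyl peptidase, differed by -0.06 ± 0.09, with an interval of -0.28 to 0.17.

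Of the 7 glycosidases measured, none rose and 1 fell, and none rose under any of the 17 settings that take 1 value per gene. With each probe tested for itself, a further Gusb probe passed, as given below. Glb1 encodes the acid β-galactosidase that cleaves gangliosides and keratan sulfate. Its level was 5.16, 5.26 and 5.42 under water and 4.66, 4.90 and 4.81 under bromate. The bromate arrays all lay below the water arrays, by -0.49 ± 0.11 (1.41-fold lower, adjusted p = 0.0374). Its other probe differed by -0.51 (adjusted p = 0.0369 over all probes). The call held without water replicate 1 and was lost in the other 5 fits that left out 1 array, with adjusted p up to 0.107. It was also lost under 4 of the 10 other settings: quantile normalization, normexp, no filter and the replicate block.

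The remaining glycosidases did not pass. Neu1, the lysosomal sialidase that works in a complex with cathepsin A, differed by -0.26 ± 0.14, and its other probe by -0.23. Man2b1, an acid α-mannosidase of glycoprotein breakdown, differed by -0.19 ± 0.09. Gusb, the β-glucuronidase of glycosaminoglycan breakdown, differed by 0.22 ± 0.09. Its other probes differed by 0.38 (adjusted p = 0.0488, which passed) and 0.22. Gaa (glycogen breakdown) and Hexa (ganglioside GM2 breakdown) differed by -0.01 and 0.03, less than their replicate spread. Gla, the α-galactosidase deficient in Fabry disease, differed by 0.11 ± 0.23, with an interval of -0.46 to 0.68. Across these 7 genes the median difference was -0.01.

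The 6 lipid and sulfate hydrolases and activators included 1 that rose and 1 that fell. Asah1 encodes acid ceramidase, which releases sphingosine from ceramide. Its level was 0.95, 0.99 and 1.08 under water and 1.31, 1.37 and 1.34 under bromate. The change was small but tight, at 0.34 ± 0.08 (1.26-fold, adjusted p = 0.0402). The call was lost in each of the 6 fits that left out 1 array, with adjusted p from 0.0723 to 0.124. It was also lost with no filter, with slide as a block and with the replicate block.

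Arsa encodes arylsulfatase A, which removes sulfate from the myelin and kidney lipid sulfatide. Its level was 1.27, 1.31 and 1.25 under water and 0.76, 0.55 and 0.82 under bromate, with the water arrays nearly level. It fell by 0.57 on the log2 scale (SE 0.10; 1.48-fold lower, adjusted p = 0.0202). All 3 of its probes passed, with differences of -0.57, -0.59 and -0.63. The call was lost without water replicate 2, water replicate 3 or bromate replicate 2, with adjusted p up to 0.0763, and also with no filter or with the replicate block.

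Gm2a encodes the activator that presents ganglioside GM2 to β-hexosaminidase A. Its level was -0.33, -0.38 and -0.25 under water and -1.31, -1.10 and -0.44 under bromate. Bromate replicate 3 lay close to the water arrays and the other 2 far below them. The difference of -0.63 ± 0.23 did not pass (adjusted p = 0.117). Leaving out bromate replicate 3 gave -0.89, which passed (adjusted p = 0.0245).

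The last 3 genes of this group did not pass. Lipa, the acid lipase that frees cholesterol from its esters, differed by 0.32 ± 0.10 with no overlap (adjusted p = 0.0781). It passed under normexp background correction and with an intensity trend in the variance. Arsb, the sulfatase of dermatan sulfate, differed by -0.28 ± 0.13. Psap, the precursor of the saposins, differed by 0.13 ± 0.11.

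Of the 6 membrane and cholesterol export proteins, 1 rose. Scarb2 encodes LIMP-2, the membrane receptor that carries β-glucocerebrosidase to the lysosome. Its level was -1.31, -1.45 and -1.34 under water and -0.45, -0.79 and -0.60 under bromate. The groups did not overlap, and the bromate arrays spread more than the water arrays. The rise was 0.75 ± 0.11 (1.69-fold, adjusted p = 0.0142). It was called under all 10 other settings, and adjusted p was 0.0598 without water replicate 2 and 0.0502 without water replicate 3.

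Lamp1 and Lamp2 encode the most abundant glycoproteins of the lysosomal membrane. Lamp1 was at 5.76, 5.93 and 6.18 under water and 6.02, 5.98 and 6.03 under bromate. The bromate values lay inside the water range, and the difference was 0.06 ± 0.12, with an interval of -0.24 to 0.35. Lamp2 differed by -0.13 ± 0.13. The tetraspanin Cd63 differed by 0.18 ± 0.09 with no overlap between groups. Npc1 and Npc2, which pass cholesterol out of the lysosome in turn, differed by 0.09 ± 0.09 and 0.10 ± 0.10.

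**Figure D2:**
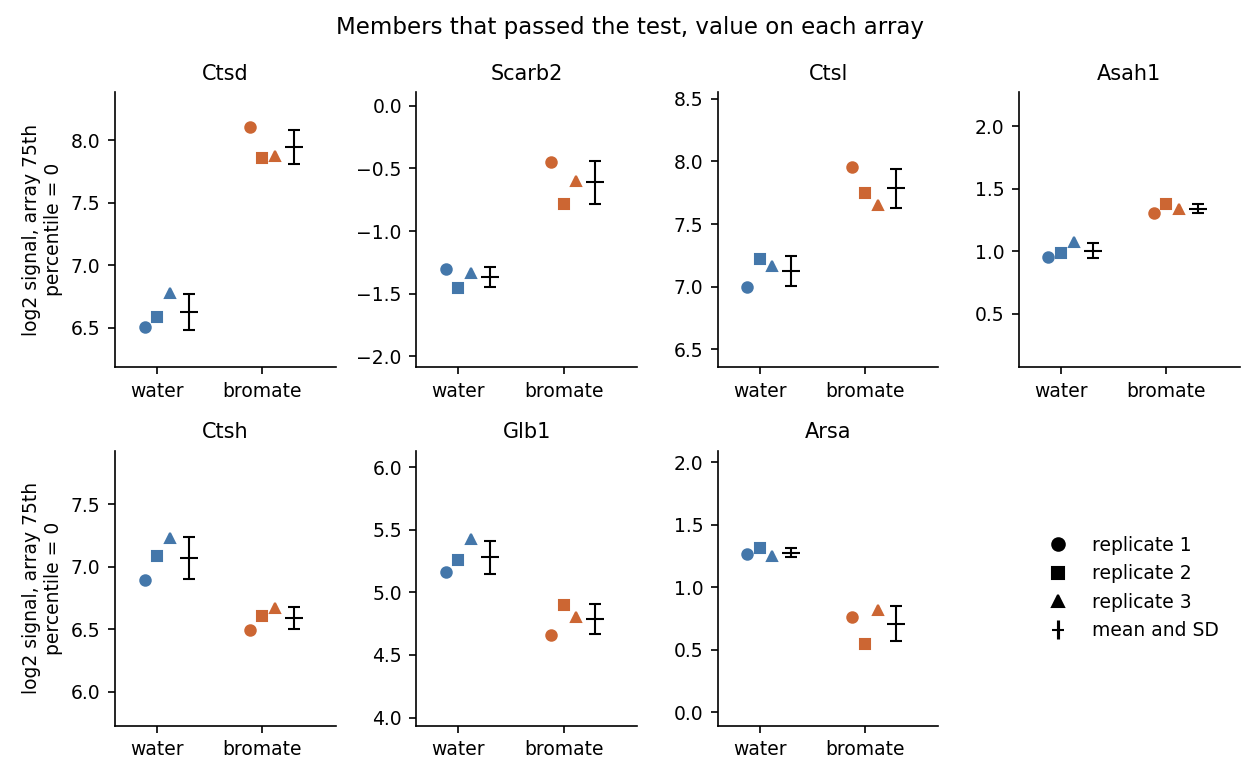
Level on each array (vertical axes, log2 signal with the array's 75th percentile at 0, all spanning the same number of log2 units) for the 7 genes that passed the test, with mean and SD (n = 3) beside the points. The groups do not overlap in any panel, and the gap is widest for Ctsd, at 6.51 to 6.78 under water against 7.86 to 8.10 under bromate.

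Without water replicate 1, so that all 5 arrays came from a single slide, the differences of the 7 genes kept their signs. They were 1.26 for Ctsd, 0.79 for Scarb2, 0.59 for Ctsl, 0.31 for Asah1, -0.57 for Ctsh, -0.55 for Glb1 and -0.57 for Arsa. Asah1 no longer passed there (adjusted p = 0.0723). Within groups the arrays also differed in a way shared by many members. Water replicate 3 was the highest water array in 25 of the 39 genes and the lowest in 3, and water replicate 1 was the lowest in 20. The median SD over the genes was 0.12 in both groups. The 8 straight proximal tubule markers, none of which passed, also differed among the water arrays. Their summed level was 651.6, 332.8 and 349.5 on water replicates 1 to 3 and 279.8 to 328.8 under bromate. Slc7a13, one of these markers, was at 7.61, 4.83 and 2.54 on the water arrays. The part of these markers in the members' values was not tested.

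Markers of other cells moved beside these genes. Of the 4 genes that rose, Ctsl and Scarb2, like Ctsd, were highest on bromate replicate 1. Asah1 was the lowest of its bromate values there, at 1.31, and highest on bromate replicate 2, at 1.37. The macrophage sum was highest on bromate replicate 2. On bromate replicate 1 that sum, 128.9, was below those of the water arrays. The mean log2 level of the same markers there, 0.78, lay within the water range of 0.67 to 0.96. The markers that rose, C1qb and Cd14, were above every water array there. C1qb was at 3.95 against 3.28 to 3.59 and Cd14 at 0.51 against -0.56 to -0.44. Cd68 and Itgam were above every water array there as well, Cd68 barely so, at 0.960 against 0.957 on water replicate 3. Itgam was well above background on only 2 water arrays. Adgre1, Aif1, Fcer1g, Ptprc, Tyrobp and Laptm5 were below every water array on bromate replicate 1. Of 3 neutrophil markers measured, 1 rose: Csf3r, which was well above background on only 1 water array. Their sums were 0.42 to 0.59 under water and 0.69 to 1.32 under bromate. The part of macrophage and neutrophil markers in the 4 rises was not tested. The tubule sums were lower on all 3 bromate arrays for the proximal tubule and for the thick ascending limb and distal tubule, as were Ctsh, Glb1 and Arsa. Of 6 thick limb and distal markers 5 fell, with sums of 298.4 to 531.6 under water and 58.24 to 104.6 under bromate. Of 6 collecting duct markers 3 fell, but their sums overlapped, at 139.1 to 204.3 under water and 143.8 to 261.2 under bromate. The part of these markers in the 3 falls was not tested.

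Tfeb, whose protein binds the E-box-like element of many lysosomal genes, did not pass. It was at -0.89, -1.09 and -1.04 under water and -1.12, -1.13 and -0.94 under bromate. The groups overlapped, and the difference was -0.06 ± 0.10, with an interval of -0.30 to 0.19. Its other probe differed by -0.19 (adjusted p = 0.351 over all probes).

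None of the 8 autophagy genes passed (limma, main fit as above), and none passed under any of the 17 settings. Sqstm1 and Atg5 had an unadjusted limma p under 0.05. The share of all genes at that threshold was not counted, so nothing about autophagy genes is drawn from it. Sqstm1 encodes p62, the receptor that brings ubiquitinated cargo to LC3 and is itself a target gene of NRF2. Its level was 4.46, 4.17 and 4.36 under water and 4.82, 4.57 and 4.54 under bromate. Each bromate array was above each water array, by 0.31 ± 0.12 on average (adjusted p = 0.143).

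Sqstm1 had 5 probes from 2 transcript accessions, and all 5 were higher under bromate. The 3 probes of the first accession differed by 0.31, 0.38 and 0.37. The 2 probes of the second differed by 0.92 and 0.54, with values of 2.83, 2.50 and 2.54 under water and 4.10, 3.10 and 3.44 under bromate for the first of them. Bromate replicate 1 was the highest array on every Sqstm1 probe. No Sqstm1 probe passed by itself, the lowest adjusted p being 0.0669. Levels of different probes cannot be compared, and no test of the difference between the accessions was made.

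The LC3 and GABARAP genes, whose proteins are joined to lipid on the autophagosome, differed little. Map1lc3b was at 4.88, 4.86 and 5.01 under water and 4.95, 4.78 and 4.87 under bromate. These ranges overlapped, and the difference was -0.05 ± 0.09, with an interval of -0.26 to 0.17. The dimmest Map1lc3b probe differed by -0.29 and did not pass (adjusted p = 0.0864). Map1lc3a differed by -0.05 ± 0.09, Gabarap by -0.14 ± 0.09 and Gabarapl1 by -0.06 ± 0.11. Becn1, a subunit of the lipid kinase complex that starts autophagosome formation, differed by 0.14 ± 0.08, and its other probe by 0.15.

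Atg5 and Atg7 act in the conjugation of LC3 to lipid. Atg5 was at -0.37, -0.48 and -0.42 under water and -0.55, -0.64 and -0.72 under bromate, a difference of -0.21 ± 0.09 (adjusted p = 0.145). Its other probe differed by 0.05, the only one of 29 further probes of members whose direction was opposite to that of the gene's main probe. Atg7 differed by 0.22 ± 0.14, with the highest value, -0.05, on bromate replicate 2. All 4 further probes of the 7 changed genes (1 for Ctsl, 1 for Glb1 and 2 for Arsa) passed in the direction of the main probe.

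**Figure D3:**
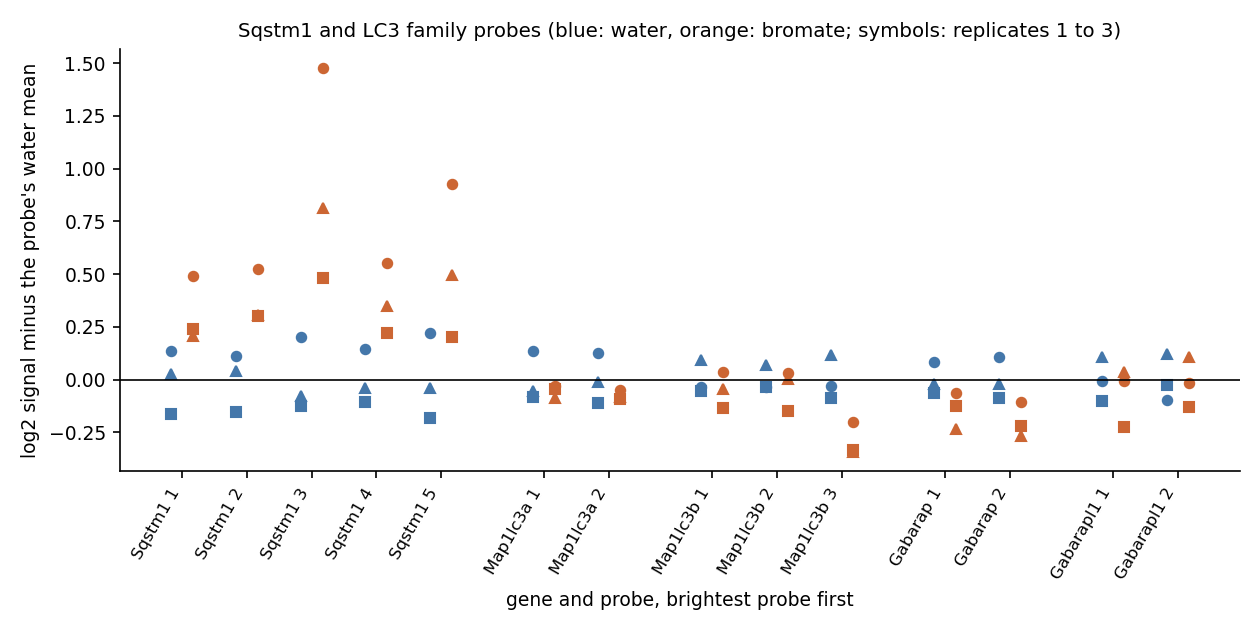
Each probe of Sqstm1 and of the LC3 and GABARAP genes (horizontal axis, brightest probe first), as log2 signal minus that probe's water mean (vertical axis). Blue is water and orange is bromate, with a circle, square and triangle for replicates 1, 2 and 3; the Sqstm1 probes sit above their water mean on all bromate arrays, while those of the other genes lie around or a little below it.

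Of the further genes of these pathways, 148 were listed in 6 groups and 128 were tested. Of these, 9 rose, 5 fell and 114 did not pass, so 10.9% passed against 14.5% of all genes, and the median difference was -0.01. Among all genes with a symbol, 8.6% rose and 8.32% fell. Among 31 other lysosomal enzymes, 4 rose and 1 fell. Hyal1, the lysosomal hyaluronidase, was at -3.10, -3.01 and -3.17 under water and -1.94, -2.01 and -1.64 under bromate. It rose by 1.23 ± 0.12 (2.35-fold, adjusted p = 0.00461) and was called without each array in turn and under all 10 other settings. Its other probe also passed, with a difference of 0.93. Hyal2, another hyaluronidase, rose by 0.73 ± 0.11 (adjusted p = 0.0140). The acid nuclease Dnase2 rose by 0.83 ± 0.12 (adjusted p = 0.0140), and its other probe, at 0.53, did not pass (adjusted p = 0.0522). Scpep1, a serine carboxypeptidase, fell by 0.42 on the log2 scale (adjusted p = 0.0398), a call lost in each of the 6 fits that left out 1 array. The fifth gene, Ifi30, lies outside the naming rule and was chosen after its values were seen. It encodes a thiol reductase of antigen-presenting cells and rose by 0.32 ± 0.08 (adjusted p = 0.0493).

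Of 19 other lysosomal membrane proteins, none rose and 1 fell: Slc29a3, a nucleoside transporter, with a difference of -0.57 ± 0.10 (adjusted p = 0.0204). Of 16 sorting genes, 1 rose and 2 fell. Sort1, which encodes the sorting receptor sortilin, was at 0.03, 0.32 and 0.26 under water and -0.62, -0.41 and -0.61 under bromate. It fell by 0.75 on the log2 scale (adjusted p = 0.0149), and its other 2 probes, at -0.52 and -0.35, did not pass. The call was lost with the mean of its probes. The adaptor subunits Ap1s1 and Ap3b1 differed by 0.36 and -0.34 (adjusted p = 0.0366 and 0.0429), and both calls were lost in each fit that left out 1 array. Both other Ap1s1 probes passed, at 0.34 and 0.33, and neither other Ap3b1 probe did, at -0.47 and -0.26.

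The 4 inhibitors of cysteine cathepsins measured included 1 that rose and 1 that fell. Cst3, which encodes the secreted inhibitor cystatin C, was at 6.48, 6.48 and 6.47 under water and 5.96, 6.18 and 6.02 under bromate. Its difference of -0.42 ± 0.09 passed (adjusted p = 0.0327), as did that of its other probe, -0.47. Cst6, which encodes cystatin E/M and inhibits legumain as well, rose by 0.80 ± 0.14 (adjusted p = 0.0217), and its other probe, at 0.68, did not pass (adjusted p = 0.0727).

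Among 22 genes of the TFEB family and of mTORC1 at the lysosome, 1 passed. Tfe3, the close relative of Tfeb, was at 2.49, 2.49 and 2.50 under water and 2.95, 2.85 and 2.92 under bromate. The groups were tight and apart, and the gene rose by 0.41 ± 0.07 (1.33-fold, adjusted p = 0.0220). Its other probe differed by 0.12 and did not pass, and the call was lost with the mean of both probes. Of the 6 fits that left out 1 array, only that without water replicate 1 kept it, with adjusted p up to 0.0800.

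Of 36 other autophagy genes, 2 rose and none fell. Vmp1, a membrane protein needed for the growing autophagosome, was at 2.69, 2.70 and 2.68 under water and 3.79, 3.33 and 3.48 under bromate. It rose by 0.84 ± 0.13 (1.79-fold, adjusted p = 0.0154), and its other probe differed by 0.53 and did not pass (adjusted p = 0.0681). The call was lost without water replicate 2 or water replicate 3 (adjusted p up to 0.0608). Wipi2, which recruits the LC3 conjugation machinery, rose by 0.44 ± 0.07 (adjusted p = 0.0184), and its other probe differed by 0.30 and did not pass. The Wipi2 call was lost with the mean of both probes. Among the other changed genes of these lists, Dnase2 lost its call without water replicate 2, and Hyal2 without water replicate 2 or bromate replicate 2. Slc29a3 and Wipi2 lost it without replicate 2 or 3 of either group. Sort1 lost it without water replicate 2, water replicate 3 or bromate replicate 3. Cst6 kept it only without water replicate 1, and Cst3 and Ifi30 lost it in each of the 6 fits. Leaving out 1 array at a time gave 12, 1 and 3 changed genes in the 6 lists without water replicates 1, 2 and 3, and 7, 4 and 5 without bromate replicates 1, 2 and 3, against 14 with all arrays. The share of all genes called fell as well, from 14.5% to 4.09% without water replicate 2.

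**Figure D4:**
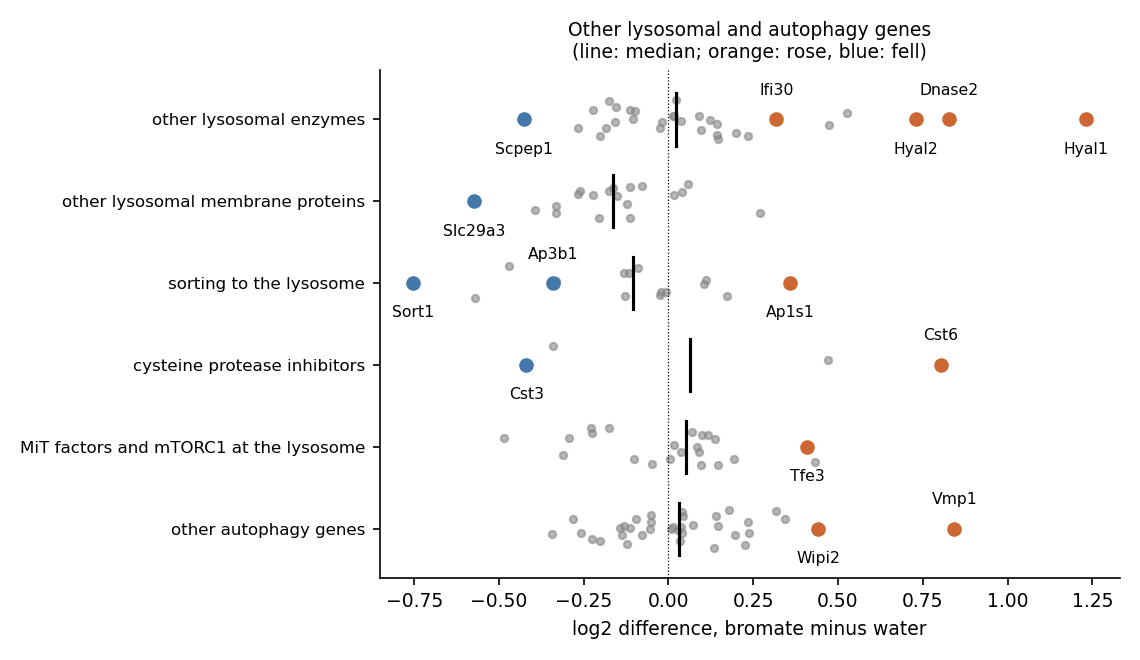
Log2 difference, bromate minus water (horizontal axis), for the 128 further genes tested, in 6 lists (rows). Orange genes rose, blue genes fell, grey genes did not pass, and a black bar marks each list's median; Hyal1 at 1.23 lies farthest from 0.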

How the data were processed

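Total RNA was labelled with Cy3, per the labels' protocols, and the submitters' processing notes name Agilent Feature Extraction 10.7. The deposited processed signal is an intensity (build rn4), which per the file headers was background-subtracted but given no scaling across arrays. The authors' deposited value table holds a linear ratio: its values of at least 1 equalled that signal over the array's 75th percentile to within 0.323%. Its scaling, centring and direction are not stated in the labels, and its column medians were 0.1043, 0.1049 and 0.103 for water and 0.1025, 0.1054 and 0.1026 for bromate.

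Log2 signals were reduced by each array's 75th percentile over 61537 non-control probes, leaving out 1439 control spots and 0 to 4 outlier spots per array. Probes well above background on at least 3 of 6 arrays entered (37783). A symbol was found for 28193 probes (45.8%) through RefSeq accessions. A gene was represented by its brightest probe, and unnamed probes were grouped by accession. The 2 groups were compared in limma 3.58.1 (lmFit, eBayes; R 4.3.3), tested on simulated data, at an adjusted p of 0.05. P-values of further probes were adjusted over all probes. Promoter windows ran from 250 bases before to 50 after the start. Every member is named; of each other list, up to 4 changed genes with the largest difference. Members and lists were chosen with earlier results of these data known. The number of arrays limits the precision. Alternatives are given at the end.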

Additional observations from a re-analysis of the deposited data

How the results depend on the processing

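The number of members that rose (4) was 2 with no filter on dim probes and 2 with the replicate number as a block. Leaving out single arrays gave 1 to 3: water replicates 2 and 3 each left 1, and bromate replicate 2 left 2. The number that fell (3) was 1 under quantile normalization, 1 under normexp with quantile normalization, 0 with no filter and 0 with the replicate block. Leaving out single arrays gave 0 to 3: water replicates 2 and 3 and bromate replicate 2 each left 0, and bromate replicate 1 left 1. The 14 genes of the wider lists became 5 with no filter, 23 with an intensity trend and robust variance, 3 with the replicate block and 1 to 12 without single arrays. The share of all genes called moved too, to 3.18% of 45432 genes with no filter, 4.07% with the replicate block and 4.09% to 12.1% without single arrays. Replicate numbers do not pair the arrays: same-numbered deviations correlated at -0.095 to 0.07. Of 624 member values under alternatives, 29 in 11 members had the opposite sign and none of these was a call, 40 lost a call and 4 gained one. The causes were not tested. With 3 arrays a group, 10 of the 32 genes that did not pass had a 95% interval reaching beyond 1.5-fold. The share of member promoters with TGACNNNGC was 31.2% when the 50 bases after the start were included (15.6% without; 12.1% and 10.1% of all promoters).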
